A study of Mus musculus with 3 samples.

Results

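The genes described here are 10 imprinted regulators of embryonic growth, Igf2, H19, Dlk1, Cdkn1c, Peg3, Mest, Plagl1, Grb10, Igf2r and Phlda2, chosen by name and followed across the primordia of the mouse esophagus, stomach and intestine. Of the 10, 9 had probes that could be named, out of 16998 genes named on the array. They were read by 14 probes in 23 spots, all of which were well above background in every organ. H19, the long noncoding RNA that lies beside Igf2, was matched to no probe through the array's accession column and is not analysed here.

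Each organ was dissected from embryos of the ICR strain, an outbred stock, at embryonic day 11.5, with no allele or agent named in the labels, and its total RNA was amplified from a low input, labelled with Cy3 and hybridised to 1 one-colour Agilent array. The study's design text places the start of gut organ morphogenesis around this stage. With 1 array per organ (3 samples in all) no difference has a replicate check and no test across genes was run, so every value describes these 3 arrays. The labels do not say whether embryos were pooled, and their extraction text names stomach for all 3 samples, so the organ was taken from each array's title and tissue label. In whole organs, fewer cells of a type and less RNA per cell cannot be told apart.

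Imprinted genes are expressed mainly from the copy inherited from 1 parent, and the silent copy usually carries DNA methylation at or near a promoter or control region. Paternally expressed genes such as Igf2, Dlk1, Peg3, Mest and Plagl1 tend to promote fetal growth, whereas maternally expressed genes such as Cdkn1c, Igf2r, Phlda2 and, in most tissues, Grb10 tend to restrain it. Many of them are highly expressed in embryonic mesoderm and liver and are turned down after birth. The arrays measured total RNA and do not separate the parental copies.

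The promoter windows of the members with the largest differences between organs are shown first, because a single RefSeq start was given for each of Peg3, Plagl1, Dlk1 and Phlda2 and because the probes of Grb10, which has 2 RefSeq starts, disagreed. Each window runs from 250 bases before to 50 bases after the start, 5′ to 3′ on the gene's strand (RefSeq, GRCm38.p6), and capitals mark CG, the dinucleotide that carries methylation.
Peg3 (chr7:6730370-6730669, minus strand): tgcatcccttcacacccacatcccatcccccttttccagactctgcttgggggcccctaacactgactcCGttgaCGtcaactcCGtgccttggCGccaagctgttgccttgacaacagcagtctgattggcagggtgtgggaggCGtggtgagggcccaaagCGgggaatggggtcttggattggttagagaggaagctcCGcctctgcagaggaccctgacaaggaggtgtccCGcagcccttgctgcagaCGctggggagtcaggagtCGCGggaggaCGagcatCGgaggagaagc
Plagl1 (chr10:13090582-13090881, plus strand): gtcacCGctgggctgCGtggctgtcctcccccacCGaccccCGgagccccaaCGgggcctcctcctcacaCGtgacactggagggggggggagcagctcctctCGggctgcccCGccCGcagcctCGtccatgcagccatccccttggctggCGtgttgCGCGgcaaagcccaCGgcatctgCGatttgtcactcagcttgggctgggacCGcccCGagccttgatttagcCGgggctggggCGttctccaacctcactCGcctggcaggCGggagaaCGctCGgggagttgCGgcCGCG
Dlk1 (chr12:109452573-109452872, plus strand): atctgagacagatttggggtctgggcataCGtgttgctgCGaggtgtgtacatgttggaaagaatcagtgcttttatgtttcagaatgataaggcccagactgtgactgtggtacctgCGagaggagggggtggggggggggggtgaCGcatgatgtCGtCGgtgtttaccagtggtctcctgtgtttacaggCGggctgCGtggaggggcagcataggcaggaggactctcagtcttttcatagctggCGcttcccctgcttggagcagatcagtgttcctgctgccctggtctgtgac
Phlda2 (chr7:143502475-143502774, minus strand): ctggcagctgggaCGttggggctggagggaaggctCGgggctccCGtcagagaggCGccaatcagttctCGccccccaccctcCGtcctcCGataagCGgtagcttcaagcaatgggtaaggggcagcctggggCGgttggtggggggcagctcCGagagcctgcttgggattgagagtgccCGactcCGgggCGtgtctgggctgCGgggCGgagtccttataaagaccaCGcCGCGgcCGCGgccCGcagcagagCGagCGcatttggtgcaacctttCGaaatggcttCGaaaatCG
Grb10, upstream start (chr11:12037371-12037670, minus strand): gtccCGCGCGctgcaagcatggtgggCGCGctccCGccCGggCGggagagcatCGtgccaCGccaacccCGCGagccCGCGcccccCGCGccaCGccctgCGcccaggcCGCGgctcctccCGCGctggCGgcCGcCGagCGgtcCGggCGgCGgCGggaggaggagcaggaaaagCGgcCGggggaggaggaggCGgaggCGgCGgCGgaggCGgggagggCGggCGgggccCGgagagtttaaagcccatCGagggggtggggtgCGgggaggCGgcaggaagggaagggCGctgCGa
Grb10, downstream start (chr11:12027922-12028221, minus strand): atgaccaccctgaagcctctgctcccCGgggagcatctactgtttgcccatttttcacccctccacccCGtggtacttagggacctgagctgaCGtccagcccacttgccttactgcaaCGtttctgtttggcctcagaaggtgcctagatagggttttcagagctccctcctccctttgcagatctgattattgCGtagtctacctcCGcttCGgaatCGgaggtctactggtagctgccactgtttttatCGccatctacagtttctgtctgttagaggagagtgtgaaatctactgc

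The windows above span a wide range of CG content. Peg3 held 13 CG and Plagl1 26, and both genes were lowest in intestine. Dlk1 held 9 and Phlda2 26, and both genes were highest there. The upstream Grb10 start held 45 CG, more than 98.1% of the 32851 windows of this length, and the downstream start held 9. Of the 14 member windows found, from 8 members, 13 held at least the median of 7 CG for all windows. Igf2, Mest and Grb10 gave more than 1 window each, and a pair of the Mest windows overlap almost completely, so the 14 windows are not separate evidence. No window was found for H19 or Cdkn1c. The letters TATAAA were found on either strand in 1 of the 14 windows, that of Phlda2, against 13.6% of all windows. The GC box letters GGGCGG were found in 9 of 14, against 35.7%. The letters GCCATNTT, the core of a YY1 site, were found in 0 of 14, against 6.05%, which says only that these letters are not in these windows.

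All values below are log2 of the background-subtracted signal minus the array's 75th percentile, so 0 is the level of that percentile. That percentile was a processed signal of 393 (esophagus), 335 (stomach) and 1024 (intestine), and 67.9% to 74.0% of spots were well above background. Across probes printed 10 times, the spots' median SD was 0.082 to 0.103 log2 units. Probes of the same gene spread more: their differences had a median SD of 0.25 (stomach minus esophagus), 0.46 (intestine minus esophagus) and 0.31 (intestine minus stomach), and organs closer than this are called not separated. The markers of each organ had their highest summed level on the array labelled with it: in esophagus, stomach and intestine in turn, esophagus markers summed to 19.9, 3.49 and 0.769 times the 75th percentile, stomach markers to 29.0, 99.8 and 5.37, and intestine markers to 0.149, 0.984 and 23.4. Being above background did not separate the organs as well, since 7 of 7 intestine markers were so in stomach and 6 of 7 in intestine, where Cdx1 was not. All genes had medians of 0.14 (stomach minus esophagus), 0.13 (intestine minus esophagus) and −0.02 (intestine minus stomach).

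The members went both ways along the gut. Intestine stood apart from esophagus more than stomach did: Dlk1 and Phlda2 were about 3-fold higher in intestine, Peg3 about 3-fold lower and Cdkn1c about 2-fold lower, while Igf2 and Mest stayed within 2-fold. Between stomach and esophagus 0 of 9 members were at least 2-fold higher or lower, where 4.08% of 13740 genes were higher and 5.76% lower (9.84% either way), and the members' median was 0.21. Between intestine and esophagus 2 of 9 were at least 2-fold higher and 2 lower, against 8.32% and 11.6% of 14462 genes (19.9% either way), with a median of −0.54. Between intestine and stomach 1 of 9 was higher and 2 lower, against 4.78% and 7.16% of 14384 genes (11.9% either way), with a median of −0.29. The 3 comparisons share arrays, so they are not independent of each other. Of all genes past 2-fold, those higher in the first-named organ made up 41.5%, 41.8% and 40.0% in these comparisons, and 60.8%, 80.9% and 72.6% when each array was centred on its median instead, so counts of higher and lower genes depend on the scaling.

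**Figure D1:**
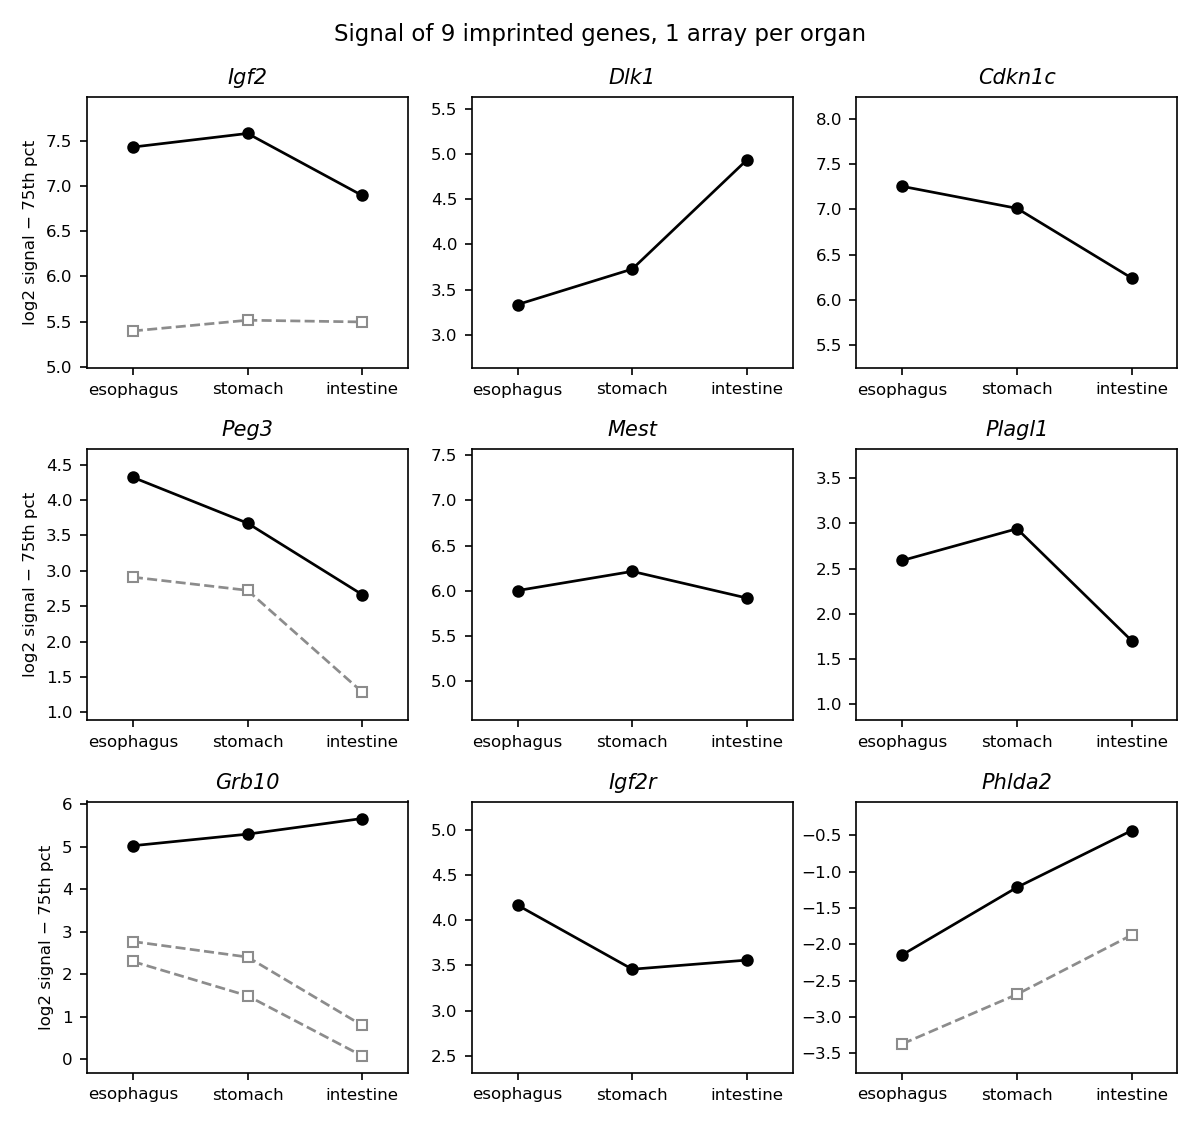
Log2 signal minus the array's 75th percentile (vertical axis, 3 log2 units or more in each panel) for the 9 named members in esophagus, stomach and intestine, 1 array per organ and no error bars; filled points are the probe that stands for the gene and open squares its other probes. Dlk1 and Phlda2 are highest in intestine, Peg3, Cdkn1c and Plagl1 are lowest there, and the 3 Grb10 probes run in different directions.

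Igf2 encodes insulin-like growth factor 2, the main fetal growth factor of the pathway. Its brighter probe, printed 10 times, read 7.43 in esophagus, 7.58 in stomach and 6.89 in intestine. Its 10 spots had an SD of 0.050, 0.052 and 0.198 log2 units, and the larger spread in intestine came from a spot with a signal of 83894 where the other 9 lay between 119303 and 137003. Every intestine spot lay below every spot of the other organs on this scale, a comparison within 3 hybridisations and not between embryos. Intestine was 0.54 below esophagus (between −0.61 and −0.039 under 9 other settings of the processing). It was 0.69 below stomach (between −0.70 and −0.11 under those settings), while esophagus and stomach were not separated. The other probe of Igf2 read 5.40, 5.51 and 5.50 and so put intestine 0.10 above esophagus and 0.02 below stomach, so a lower Igf2 level in intestine rests on the brighter probe. The highest Igf2 spot reached 17.6% of the scanner's saturation value, and no spot on these arrays was marked as saturated.

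Dlk1 encodes a transmembrane and secreted relative of the Notch ligands that marks immature mesenchyme, hepatoblasts and preadipocytes. Its probe read 3.34 in esophagus, 3.73 in stomach and 4.93 in intestine. Intestine was 3.03-fold above esophagus and 2.31-fold above stomach. The difference of 0.39 between stomach and esophagus exceeded 0.25, the median SD between probes over other genes, though Dlk1 itself has 1 probe. Intestine remained at least 2-fold above both organs under each of the 9 other settings tried. Every setting reuses the same 1 spot, so none checks the difference against another probe. Of 6 Notch genes read beside it, 1 was past 2-fold lower in intestine minus esophagus by the brightest probe, Notch1 at −1.47, and 0 were higher by that much, with a median of −0.41. In that comparison 11.6% of all genes were lower and 8.32% higher. Notch2 stood at −0.90 by its brightest probe and at −2.17 and −2.02 by its others. Notch3 (0.036) and Hes1 (−0.026), a target of Notch signalling, lay near 0 in that comparison, with signs that turned under some settings.

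Peg3 encodes a large zinc-finger protein and is transcribed from a promoter inside a region methylated on the maternal copy. Its brighter probe read 4.32 in esophagus, 3.67 in stomach and 2.66 in intestine, and its other probe 2.91, 2.72 and 1.29. Both probes therefore placed intestine lowest, by 1.66 and 1.62 below esophagus (3.15-fold and 3.08-fold) and by 1.01 and 1.44 below stomach. Stomach was 0.65 below esophagus by the brighter probe and 0.19 below by the other. The intestine remained at least 2-fold below esophagus under 9 of 9 other settings, and at least 2-fold below stomach under 5 of 9. Those 5 include the settings that only change the filter on dim probes, which repeat the main value.

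Plagl1 encodes a zinc-finger transcription factor that regulates other imprinted genes, and it too starts within a region methylated on the maternal copy. Its probe read 2.59 in esophagus, 2.94 in stomach and 1.70 in intestine. Plagl1 in intestine was 2.36-fold below stomach (at least 2-fold under 8 of 9 other settings), and 0.89 below esophagus, which is within 2-fold. Settings of the dim-probe filter and probe averaging repeat the main value for this gene, which has 1 probe. Its relatives Plag1 and Plagl2 stood at −1.99 and −0.84 in intestine against esophagus, and Plag1, a dim gene at −3.95 in intestine, was also lower than in stomach (−1.18). Mest, which encodes an enzyme of the alpha/beta hydrolase fold found in embryonic mesoderm, was the flattest member, at 6.0 in esophagus, 6.22 in stomach and 5.92 in intestine. No neighbouring pair in that order was separated, and the sign of its small differences turned under some scalings.

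Cdkn1c encodes p57, an inhibitor of cyclin-dependent kinases that holds cells out of the cycle. Its probe read 7.25 in esophagus, 7.01 in stomach and 6.24 in intestine. Intestine was 2.02-fold below esophagus and 1.71-fold below stomach, while stomach and esophagus were not separated. The value against esophagus sits on the 2-fold line: it passed under 6 of 9 other settings and lay between −1.10 and −0.52 over them. Settings of the dim-probe filter and probe averaging repeat the main value, since the gene has 1 probe, well above background on every array. The deposited values share the main scale and gave −1.01. The difference also passed with cyclic loess (−1.10) and with the 75th percentile over probes detected on all arrays (−1.07). It did not pass with quantile normalization (−0.91), normexp (−0.55) or median centring (−0.52). The related inhibitor Cdkn1b stood at −0.94 (−1.60 by its other probe) and Cdkn1a at −0.09 in the same comparison. Of 15 cell cycle genes tested there by their brightest probe, 1 was at least 2-fold higher, the replication clamp gene Pcna (1.44), and 1 lower, Cdk6 (−1.66, but −0.67 by its other probe), with a median of −0.09. The shares of all genes were 8.32% higher and 11.6% lower. Other probes of Cdk2 (1.36), Ccne1 (1.1) and Top2a (−1.42) also passed 2-fold, where their brightest probes gave −0.58, −0.29 and 0.26.

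Phlda2, a maternally expressed PH-domain gene, is best known for limiting placental growth. Its brighter probe read −2.15 in esophagus, −1.22 in stomach and −0.44 in intestine, with processed signals of 88.7, 144 and 757. Its other probe read −3.37, −2.69 and −1.87, so both probes gave the same order, with intestine 3.27-fold and 2.82-fold above esophagus. Stomach lay between, 0.93 above esophagus by the brighter probe and 0.68 by the other, and it passed 2-fold under 2 of 9 other settings. Of 4 trophoblast markers with a probe, Tpbpa and Gcm1 were not well above background in any organ. Psg17 was not so in esophagus and was at least 1.02 higher in stomach. Only Elf5 was well above background in every organ, at −1.91 in stomach and −4.66 in intestine against esophagus. The list's summed level, as a multiple of the 75th percentile, was 0.376 (esophagus), 0.148 (stomach) and 0.040 (intestine). The part of trophoblast RNA in the Phlda2 values was not tested.

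Igf2r encodes the receptor that carries IGF2 to the lysosome for degradation. Its probe read 4.16 in esophagus, 3.46 in stomach and 3.56 in intestine. Stomach was 0.71 and intestine 0.61 below esophagus, each within 2-fold. These exceeded the median SD between probes over other genes (0.25 and 0.46), though Igf2r itself has 1 probe. Stomach and intestine were not separated. Esophagus kept the highest value under all 9 other settings.

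Grb10 encodes an adaptor that binds the insulin and IGF1 receptors and dampens their signalling, and its direction was not settled here. The brightest probe read 5.02 in esophagus, 5.30 in stomach and 5.66 in intestine, with intestine 0.64 above esophagus. The second probe read 2.77, 2.40 and 0.80, and the third 2.30, 1.49 and 0.079, which put intestine 3.92-fold and 4.66-fold below esophagus. All 3 probes carry the same accession, and the files hold no probe sequences, so the part of the transcript each reads is not known here. Probe disagreement of this kind was common in that comparison: among 4698 genes with at least 2 measured probes, the dimmest probe's difference lay at least 2-fold below that of the brightest in 23.1% and above it in 8.05%. For stomach against esophagus the shares were 4.78% and 1.73% of 4619 genes, and for intestine against stomach 13.4% and 4.79% of 4695. Dlk1, Cdkn1c and Plagl1, each called at least 2-fold apart above, have 1 probe each, so such disagreement could not be checked for them.

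**Figure D2:**
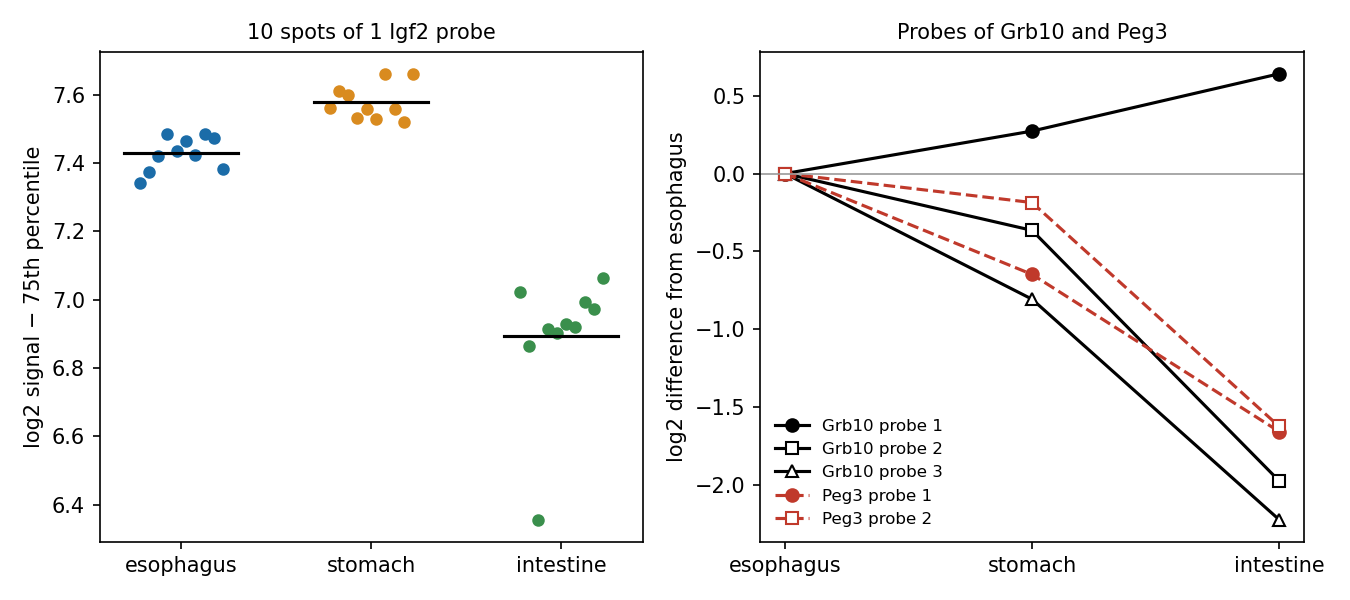
Left, log2 signal minus the 75th percentile of the 10 spots of the brighter Igf2 probe on each array, with the mean as a bar; the intestine spots lie below all others and 1 of them lies far below the rest. Right, difference of each Grb10 and Peg3 probe from its own esophagus value (log2 units), where both Peg3 probes end near −1.6 in intestine and the Grb10 probes end at 0.64, −1.97 and −2.22.

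The neighbours of the members in their imprinted clusters were read alongside them. Cdkn1c and Phlda2 lie on chromosome 7 with 2 genes between them in the RefSeq table, and they went opposite ways in intestine against esophagus, −1.01 and 1.71. Slc22a18, a transporter gene of the same cluster, was 2.0-fold above esophagus in stomach and 0.70 above it in intestine, though its other probe gave 0.46 and −0.01, and Nap1l4, which follows Phlda2, stood at 0.12 and 0.080, with other probes at 1.08 and −1.27 in intestine. Beside Peg3, Zim1 was lower in intestine than in esophagus by a larger amount (−2.42) and Usp29 stood at −0.24. Dio3, a thyroid hormone deiodinase gene in the imprinted domain of Dlk1, was 3.29 above esophagus and 2.14 above stomach in intestine, in the same direction as Dlk1. Copg2, next to Mest, stood at −0.35 in intestine against esophagus, while 1 of its other probes gave −2.19. Ins2, near Igf2, stood at −0.28. The signs of Usp29, Nap1l4, Copg2 and Ins2 turned under at least 1 other setting, and those of the genes called 2-fold in this paragraph did not.

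Among the other imprinted genes of the list, 31 of 40 had a probe. Between stomach and esophagus 3 of 28 tested were at least 2-fold higher in stomach (Ascl2 1.48, Dio3 1.15, Slc22a18) and 2 lower (Dcn −1.43, Zim1 −1.41), with a median of 0.04. Of all genes 4.08% were higher and 5.76% lower in that comparison. Between intestine and esophagus 6 of 30 were higher (Dio3, Gnas 1.56, Nnat 1.47, Ano1 1.19, Ndn 1.05, Inpp5f 1.03) and 2 lower (Zim1, Dcn −1.33), with a median of 0.17. The shares of all genes were 8.32% higher and 11.6% lower. Ppp1r9a stood at 0.61 by its brightest probe and at −0.33, −1.21 and −1.21 by its others. Slc38a4 stood at 0.04, and at −1.29 by its other probe. Inpp5f is uncertain, since its other probe gave −1.81, whereas the other probes of Gnas, which encodes a stimulatory G protein subunit, gave 1.60 and 1.53. Ndn passed 2-fold under 6 of 9 other settings. Nnat and Ndn are best known from neurons, and Dcn is a matrix proteoglycan gene. Of 7 neural crest and neuron markers, 3 were at least 2-fold higher in intestine against esophagus (Elavl4 1.36, Tubb3 1.32, Stmn2 1.60). Another 2 were lower (Erbb3 −2.97, and Ednrb −1.34, but −0.01 by its other probe). Against stomach Elavl4, Tubb3 and Stmn2 stood at −0.17, −0.23 and 0.25. The list's summed level was 13.5 (esophagus), 13.4 (stomach) and 11.3 (intestine) times the 75th percentile. The part of neuronal or neural crest RNA in these values was not tested. Between intestine and stomach 5 of 30 were higher (Dio3, Nnat 1.68, Gnas 1.52, Asb4 1.36, Ano1 1.15) and 1 lower (Zim1 −1.02), with a median of 0.13. Here 4.78% of all genes were higher and 7.16% lower. The other Gnas probes gave 0.74 and 2.33 and the other Asb4 probe 0.92. Probes other than the brightest also passed 2-fold for Sgce (1.07), Copg2 (−1.55), Inpp5f (−1.27) and Ppp1r9a (−1.07).

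The rest of the insulin-like growth factor pathway was read by its ligands, receptors, binding proteins and signalling genes. Of 31 pathway genes tested in intestine against esophagus by their brightest probe, 9 were at least 2-fold lower and 1 higher. Their median was −0.35, where 11.6% of all genes were lower and 8.32% higher. Other probes of Irs4 (3.31) and Igfbp4 (1.19) passed 2-fold higher, where their brightest probes gave 0.60 and −0.88. Those of Rps6kb1 (−2.93) and Akt1 (−1.94) passed 2-fold lower, where their brightest probes gave −0.22 and 0.0009. Against stomach 6 were lower (Pappa, Igfbp6, Pik3r1, Irs1, Igf1 and Foxo3) and 0 higher, with a median of −0.22, where 7.16% of all genes were lower and 4.78% higher. In that comparison other probes of Igfbp5 (−1.38), Akt1 (−1.66), Rps6kb1 (−1.47) and Igf1r (−1.36) passed 2-fold lower, and that of Igfbp4 (1.76) passed 2-fold higher. Igf1, the other IGF ligand, read 3.73 in esophagus, 3.20 in stomach and 1.60 in intestine, a difference of −2.13 from esophagus, where Igf2 differed by −0.54. Pappa, a protease that frees IGF from its binding proteins, stood at −4.97 in intestine against esophagus, and at −5.81 by its other probe. Among the binding proteins Igfbp5 (−2.07, other probe −3.36), Igfbp6 (−1.71) and Igfbp7 (−1.42) were lower in intestine than in esophagus and Igfbp3 (1.44) was higher. The receptor gene Insr (−1.56) and the signalling genes Irs1 (−2.07), Pik3r1 (−1.51, other probes −2.14, −1.09 and −1.90) and Foxo3 (−1.75) were also lower. Each of these 10 kept its sign under 9 of 9 other settings. Igf1r, the receptor through which IGF2 signals, stood at 0.18 by its brightest probe and at 0.58 and −2.35 by the others. Between stomach and esophagus 1 of 30 was higher (Igfbp3 1.03) and 2 lower (Igfbp5 −1.56, other probe −1.98, and Igfbp7 −1.60), with a median of −0.06. The other probes of Pappa (−1.58) and Rps6kb1 (−1.46) passed 2-fold lower there, and that of Irs4 (2.73) passed 2-fold higher. The Igf2bp genes, whose proteins bind Igf2 mRNA, stayed within 2-fold in each comparison, with Igf2bp2 highest at 0.74 in stomach against esophagus.

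Of 6 genes of imprint maintenance tested between stomach and esophagus, 0 were at least 2-fold apart, where 9.84% of all genes were. Between intestine and esophagus 1 of 7 was higher, Smchd1 (1.34, but −1.45 by its other probe), and 1 lower, the zinc-finger gene Zfp445 (−1.19, other probes −1.45 and −2.15). The shares of all genes were 8.32% higher and 11.6% lower. The maintenance methyltransferase gene Dnmt1 stood at 0.28, and Trim28, whose protein is the co-repressor of KRAB zinc-finger proteins, at 0.58. Ctcf, the insulator protein gene of the Igf2 and H19 locus, had no named probe.

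RNA of other tissues moved with the organs and is given beside the members because Dlk1 and Igf2 are abundant in fetal liver and muscle. The 11 liver markers summed to 12.1 (esophagus), 10.4 (stomach) and 93.2 (intestine) times the 75th percentile. Against esophagus, 9 of the 11 were higher in intestine by 2-fold or more, among them Alb (3.34) and Afp (2.51), and Prox1 was lower (−2.35, other probe −1.15). All 11 were well above background in intestine, and Ttr alone was not in esophagus and stomach. Dlk1 and Phlda2 were highest on the same array, whereas Igf2 was lowest on it by its brighter probe. The 8 heart markers summed to 103, 2.61 and 1.17 in the same order, and 5 skeletal muscle markers summed to 19.4, 1.19 and 3.29, with Myf5 not well above background on any array. Peg3, Cdkn1c and Igf2r were highest on the esophagus array, where the summed levels of both lists were highest too, although the muscle gene Mymk stood at 0.41 in stomach and 0.72 in intestine against esophagus. Trachea and lung markers also summed highest there, to 9.45 against 0.549 in stomach and 0.060 in intestine. Smooth muscle markers summed to 140, 67.6 and 61.4. The 6 pancreas markers summed to 8.45, 5.14 and 1.53. In intestine against esophagus, Ptf1a (at least 2.07) and Pdx1 (at least 1.68) were higher, and Nkx6-1 (−4.35) and Gcg (−1.50) were lower. The part of liver, heart, muscle, airway or pancreas RNA in the members' differences was not tested. Macrophage markers (2.54, 3.0 and 3.08) and endothelial markers (10.4, 8.22 and 12.2) differed less between organs.

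**Figure D3:**
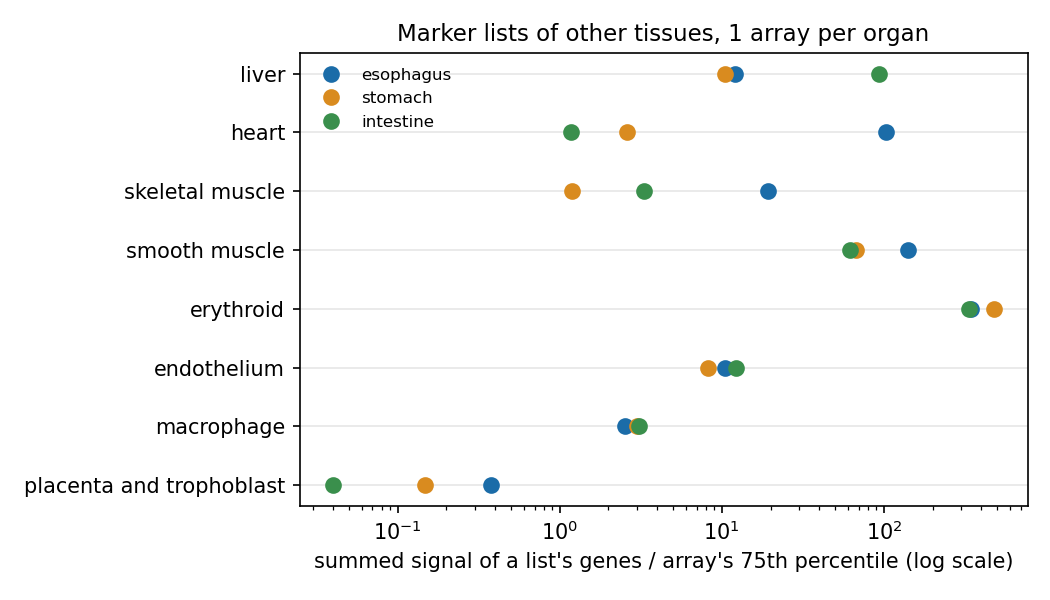
Summed signal of each marker list's genes divided by the array's 75th percentile (horizontal axis, log scale) for 8 lists of other tissues, 1 point per organ array. Liver markers sum to 93.2 in intestine against 12.1 and 10.4, and heart markers to 103 in esophagus against 2.61 and 1.17.

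Genes with the most similar pattern over the 3 arrays were sought among 12855 named genes measured on all of them, by the Euclidean distance between values centred on each gene's own mean. Closeness over 3 arrays is given as a description. Among the genes near Dlk1 were Pnp (distance 0.030 log2 units) and Tmprss6 (0.053), and nearest to Phlda2 were Olfr971 (0.015), Slc2a3 (0.031) and Mycbp (0.037). Peg3 was closest to Cdk6 (0.0079), Fbxo32 (0.014) and Zfc3h1 (0.025), and Cdkn1c to Cbx6 (0.0045), Cxcl16 (0.0084) and Ddx25 (0.0087). Plagl1 was closest to H2ac4 (0.024), Cep68 (0.026) and Rpl41 (0.038), and Igf2r to Rbms3 (0.020), Pcdhb18 (0.023) and Mtus1 (0.024). Igf2 was closest to Adgrb3 (0.019), Psd2 (0.020) and Dbt (0.021). The flat pattern of Mest and the brightest probe of Grb10 had near matches at 0.0067 (Nudt16l1) and 0.0033 (Borcs5).

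**Figure D4:**
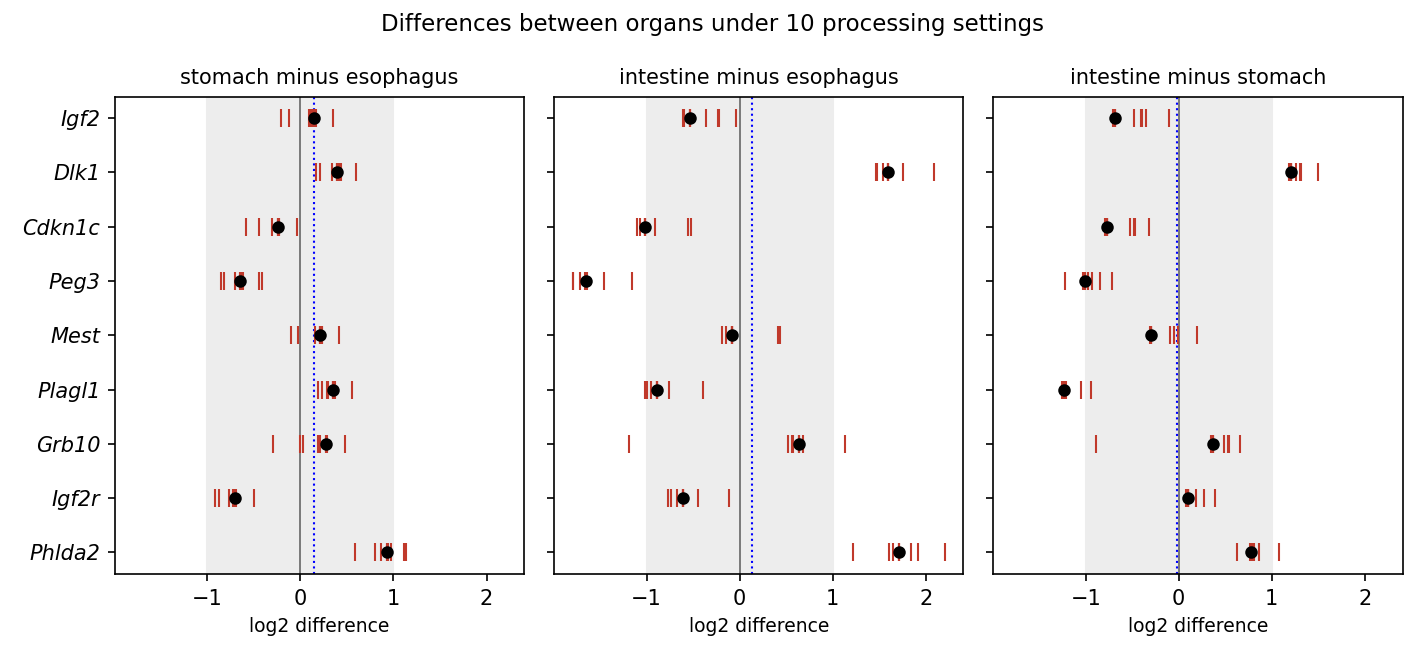
Log2 difference between organs (horizontal axis) for each member in the 3 comparisons; black points are the values given above, red ticks the same difference under 9 other settings, the grey band the range within 2-fold and the dotted line the median of all genes. Dlk1 and Phlda2 lie right of the band and Peg3 left of it in intestine minus esophagus under every setting drawn, while Grb10 has a tick on the other side of 0 in each panel.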

How the data were processed

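Total RNA of 3 organ primordia was measured with 1 one-colour Agilent array per organ. Per the file headers, the authors read each spot's intensity in Agilent Feature Extraction (10.5.1.1), with background and spatial trends removed. A deposited table of log2 values had medians of −2.97, −3.17 and −3.47 in esophagus, stomach and intestine. After removal of 1 constant per array, 99.8%, 99.9% and 99.9% of probes lay within 0.01 of the scanner values, so its scale is log2 relative to the 75th percentile, uncentred by probe. It served as an alternative.

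Of 43379 non-control spots per array, outliers (111, 70 and 77) were left out. Main values were log2 processed intensity minus the array's 75th percentile, averaged over the spots of a probe. Probes were named by matching accessions, without versions, to RefSeq transcripts (GRCm38.p6): 24375 of 41174 probes had 1 symbol and 0 had several. The files hold no gene name column. The probe with the highest mean stood for a gene, and other probes are quoted for the members and, among list genes, where they bear on a call in the text. A gene entered a comparison if either array held it well above background, with a bound where only 1 did. A fold of 2 was used for counts. The member genes, every named list gene, the markers and the 3 nearest genes per member were named by rule, and members and lists were chosen with earlier results of these data known. A gene that this rule names is not reported here. Alternatives (9) covered background, scaling, probe choice, dim probes and source, and normexp (offset 50) used median signals because the files hold no mean signal. For a gene well above background on both arrays, settings that only change the filter on dim probes repeat the main value. Probe averaging does so for a gene with 1 probe. Tools were R 4.3.3, limma 3.58.1, Python 3.11.15 and pandas 2.3.3. The counting step was tested on simulated data. The 3 arrays lay on 1 slide, so position and organ cannot be told apart.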

Additional observations from a re-analysis of the deposited data

How the results depend on the processing

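The number of members at least 2-fold apart was 0 between stomach and esophagus and became 1 (Phlda2) under quantile normalization and under centring on each array's median. In the other comparisons it stayed within 1.5 times its value of 4 and 3 under all 9 settings. The median over members moved by more than the spread between probes of a gene to −0.10 for stomach against esophagus with cyclic loess, to −0.039 for intestine against esophagus with median centring, and to 0.20 for intestine against stomach with normexp on median signals. Of 243 differences of single members under the other settings, 218 moved by less than that spread, 25 moved by more, and 0 that were at least 2-fold changed sign. Many of the 218 were fixed in advance. Settings of the dim-probe filter repeat the main value for every measured member, and averaging probes repeats it for members with 1 probe. The deposited values differ from the main ones by little more than 1 constant per array. Median centring raised the median of all genes from 0.14 to 0.35 for stomach against esophagus, from −0.02 to 0.28 for intestine against stomach and from 0.13 to 0.65 for intestine against esophagus. In the last it raised the higher share of 2-fold calls from 41.8% to 80.9%, against 62.5% with quantile normalization, 59.0% with cyclic loess and 26.8% with normexp. For stomach against esophagus the share went from 41.5% to 60.8% with median centring and 54.5% with quantile normalization. For intestine against stomach it went from 40.0% to 72.6%, 61.7% (quantile), 62.4% (cyclic loess) and 13.3% (normexp). Averaging all probes turned Grb10 to −1.18 for intestine against esophagus. Cyclic loess and the use of median signals in normexp were chosen after seeing the data, and the planned normexp on mean signals was not run because the files hold none. No paired analysis was possible because each organ has 1 array. All 9 measured members were well above background, but the dim Phlda2 depended on how background was handled. With normexp its difference went from 1.71 to 1.21 for intestine against esophagus and from 0.93 to 0.59 for stomach against esophagus.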
